A study of Mus musculus with 6 samples.

Results

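The 10 genes described here belong to the BCL2 family, which sets whether a cell passes the mitochondrial step of apoptosis. They are Bcl2, Bcl2l1, Mcl1, Bax, Bak1, Bcl2l11, Bbc3, Pmaip1, Bid and Bad, chosen by symbol from the 23725 genes of the deposited tables, and all 10 had a row. The data are 6 RNA-seq libraries of Tregs (regulatory T cells), a CD4 T cell type that holds immune responses in check, taken from lymph nodes. The C57Bl/6 donor mice had been given MOG (myelin oligodendrocyte glycoprotein) as the immunising antigen. 3 libraries came from MOG KO mice, which lack MOG in the whole animal, and 3 from WT mice, so both genotypes had been immunised. The stated comparison is of MOG KO with WT Tregs. Each library was made from 500 cells by SMARTer cDNA synthesis, 15 cycles of PCR and NexteraXT tagging, and carried no molecular identifiers. The labels number the replicates and do not tie each number to its own mouse. The spread that the p-values rest on may therefore be technical in part.

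The family works through contact between its members. Pro-survival proteins (BCL2, BCL-XL and MCL1) hold the effectors BAX and BAK in check, and BAX and BAK, once released, open the outer mitochondrial membrane and let out cytochrome c. BH3-only proteins (BIM, PUMA, NOXA, BID and BAD) carry stress and cytokine signals to the family by binding the pro-survival proteins, and some also bind the effectors. In mouse Tregs, loss of Mcl1 is known to deplete the population and loss of Bcl2l11, the gene of BIM, to enlarge it, and interleukin 2 is known to sustain their survival.

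The short stretch that makes these contacts is the BH3 core, a leucine, 3 residues of any kind, a glycine and an aspartate. It is shown because pro-survival, effector and BH3-only proteins all carry a BH3 stretch, and it is printed for the members with exactly 1 match to this core. The lines give 14 codons each, 5′ to 3′ on the coding strand of GRCm38, with the codons of the leucine, the glycine and the aspartate in capitals.
Bcl2, chr1:106712572-106712613, minus strand: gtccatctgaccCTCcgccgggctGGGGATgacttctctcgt
Bcl2l1, chr2:152829694-152829735, minus strand: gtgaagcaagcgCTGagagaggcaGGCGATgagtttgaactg
Mcl1, chr3:95659424-95659465, plus strand: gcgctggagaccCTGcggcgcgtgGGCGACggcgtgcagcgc
Bax, chr7:45465994-45466035, minus strand: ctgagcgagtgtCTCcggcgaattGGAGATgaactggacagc
Bak1, chr17:27022528-27022569, minus strand: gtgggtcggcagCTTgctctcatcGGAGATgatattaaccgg
Bcl2l11, chr2:128147138-128147179, plus strand: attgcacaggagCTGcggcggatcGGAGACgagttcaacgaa
Bid, chr6:120897286-120897327, minus strand: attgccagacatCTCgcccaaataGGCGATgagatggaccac
These are 7 of the 10 members, those with exactly 1 match. Over all genes the core occurred at least once in 13.1% of 21870 principal coding sequences. That share also takes in sequences with more than 1 match, such as that of Pmaip1. Bbc3 and Bad had no match to these exact residues in the coding sequence read. Pmaip1 had more than 1 match and its sequence is not shown.

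Total counts were 3450623 to 4361315 in the MOG KO libraries and 2717969 to 4472549 in the WT libraries. A count of 0 allows up to the value of 3 counts, which was 0.671 to 1.10 reads-per-million (RPM) depending on the library, and this floor covers counting error only. The targeted gene Mog (Entrez 17441, chromosome 17, 37010740 to 37023398) had 0 counts in MOG KO and 1 count in WT, so it does not check the genotype labels. WT replicate 3 stood apart, with 2701 genes at 10 RPM or more against 3265 to 4440 in the other libraries, and with 8.22 RPM of Foxp3, which encodes the factor that defines Tregs, against 326 to 690 RPM. All 5 Treg markers (Foxp3, Il2ra, Ctla4, Ikzf2 and Tnfrsf18) were tested, and 4 of them were at 10 RPM or more in every library. Ctla4 was at 74.3 RPM in WT replicate 3 against 450 to 612 RPM elsewhere, while Il2ra, Ikzf2 and Tnfrsf18 were lowest in other libraries. The 4 T cell markers in the table summed to 574 RPM in WT replicate 3 against 1060 to 1483 RPM elsewhere. Cd3g (1.42 RPM) and Cd4 (170 RPM) were lowest there, and Cd3e and Cd3d in other libraries. Of the markers of other cells, the CD8 T cell and natural killer lists had 0 counts throughout. Of 5 B cell markers Cd79a and Pax5 had 0 counts in all libraries, and the list summed to 0 to 130 RPM in MOG KO and 2.21 to 206 RPM in WT. The 3 plasma cell markers summed to 0.462 to 293 RPM in MOG KO and 1.98 to 358 RPM in WT, most of it Xbp1, with Sdc1 at 0 counts throughout. The 3 stromal and endothelial markers in the table summed to 28.0 to 461 RPM in MOG KO and 1.98 to 91.6 RPM in WT. Most of it was Pecam1, with Col1a1 at no more than 2.75 RPM in any library and Pdpn at 0 counts throughout. The 4 dendritic cell markers summed to no more than 0.290 RPM in any library.

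Mcl1 was read at a like level in all 6 libraries, Bcl2 and Bbc3 were near 0 in all of them, and the other 7 members were read in some libraries and near 0 in others. Presence is counted here as 10 RPM or more. Mcl1 alone was present in all 6 libraries, 1 of the 8 members present in at least 1 library, where the share over all 7909 such genes was 8.9%. Bcl2 and Bbc3 had no library at 3 RPM, 2 of 10 members, where 32.6% of the 12317 genes with at least 1 count were under 3 RPM throughout. Of the 60 values of the members, 22 (36.7%) were at 10 RPM or more, 37 were under 3 RPM and 1 (1.67%) lay between. Over all genes 15.0% of values were at 10 RPM or more and 1.36% lay between. Over the genes present in at least 1 library these shares were 44.9% and 3.09%, so few values between the limits were general to these libraries. For bulk cells, fewer cells with a transcript and less of it per cell cannot be told apart.

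**Figure D1:**
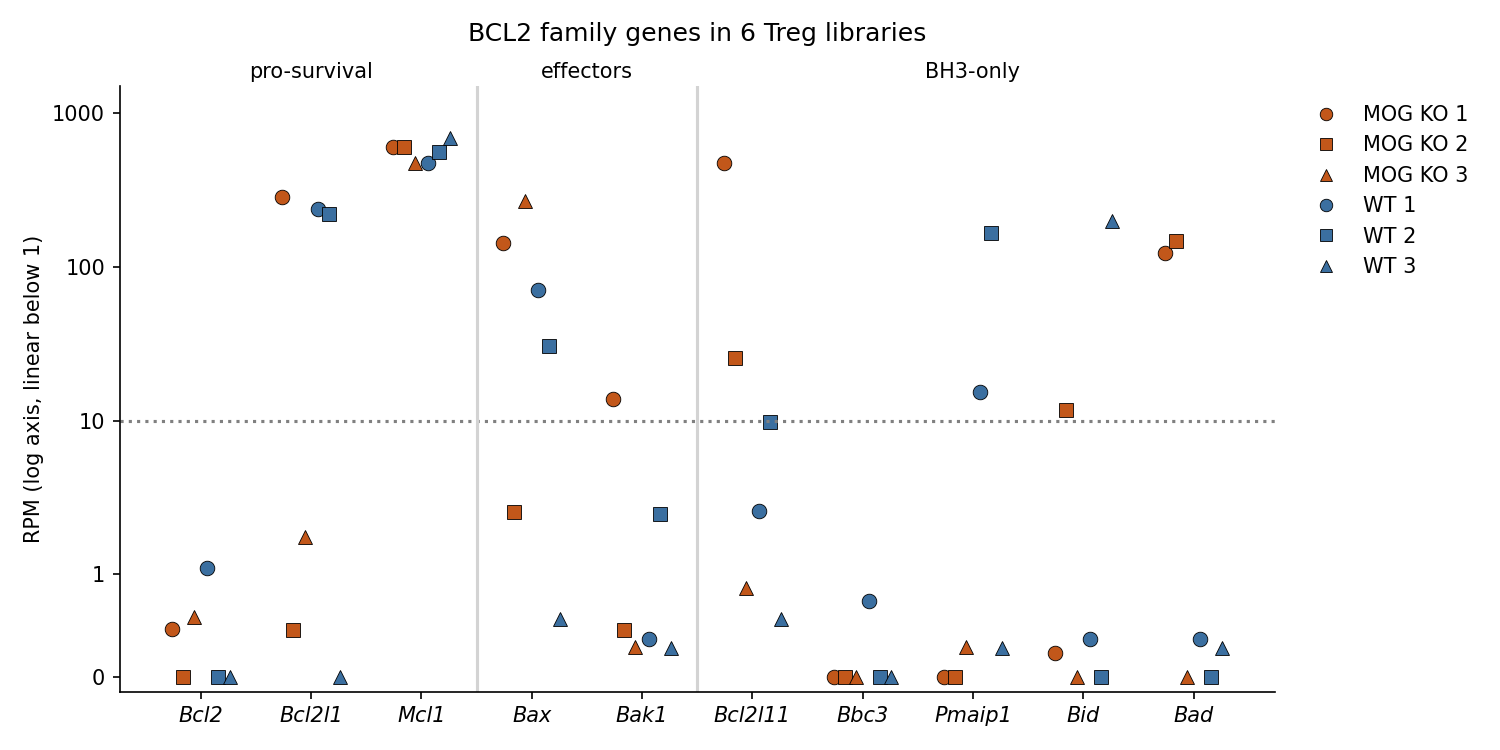
RPM of each member in each library (log axis, linear below 1; orange MOG KO, blue WT; circle, square and triangle for replicates 1, 2 and 3; dotted line at 10 RPM). Mcl1 sits between 476 and 691 RPM in all 6 libraries, while Bcl2l1, Bax, Bcl2l11, Pmaip1, Bid and Bad split into values near 0 and values above 10 RPM within a genotype.

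Mcl1 (Entrez 17210, chromosome 3, 95656944 to 95663179) encodes a short-lived pro-survival protein. It had 606, 608 and 476 RPM in MOG KO replicates 1, 2 and 3, and 476, 565 and 691 RPM in WT replicates 1, 2 and 3. The genotypes overlapped, with MOG KO replicate 3 and WT replicate 1 lowest and WT replicate 3 highest. The means were 563 ± 75.5 RPM in MOG KO and 577 ± 108 RPM in WT (SD, n = 3 each). Its log2 fold change was -0.11 ± 0.53 (SE), with a 95% interval of -1.35 to 1.12 and an adjusted p of 1 in edgeR. It was 0.14 without WT replicate 3, a change of sign within the SE.

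The evenness of Mcl1 was uncommon among these libraries. Its highest library was 1.45 times its lowest, and 34 of the 704 genes present in all 6 libraries (4.83%) had a smaller ratio, the median being 3.75. Of the 152 genes with a higher mean than Mcl1, 139 were present in all 6 libraries, 13 of these had a smaller ratio, and their median ratio was 3.11. A smaller SE than that of Mcl1 was found for 2.10% of the 4088 genes tested, whose median SE was 2.42.

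**Figure D2:**
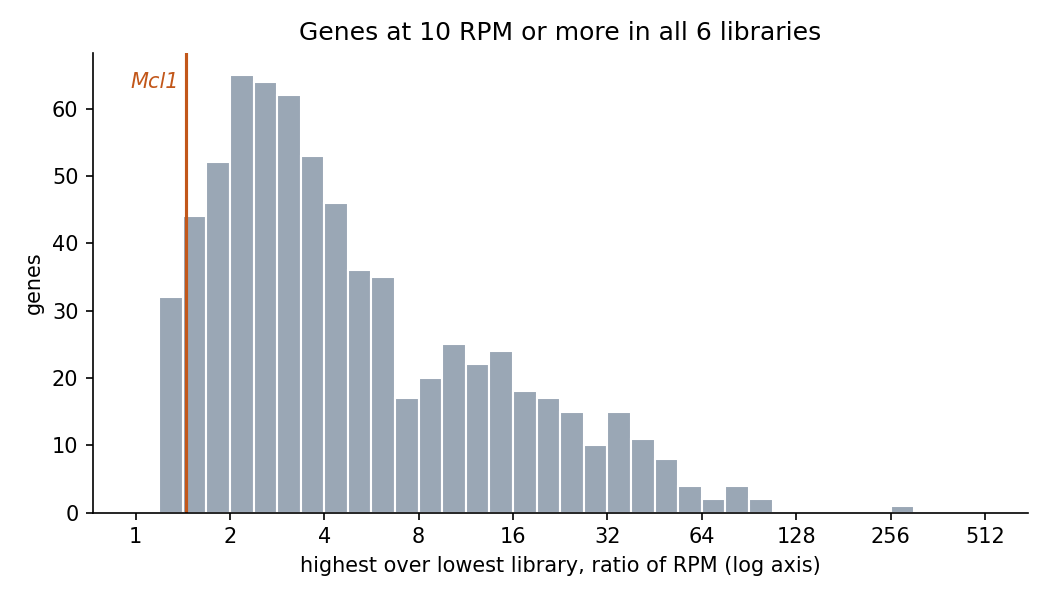
Number of genes by the ratio of their highest to their lowest library (log axis), for the 704 genes at 10 RPM or more in all 6 libraries. The vertical line marks Mcl1 at a ratio of 1.45, at the low end of the distribution, whose median is 3.75.

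By the Pearson correlation of log2(RPM + 1) over the 6 libraries, the tested genes most like Mcl1 were Rpl41 (r = 0.99), which encodes a ribosomal protein, Mib2 (r = 0.99), which encodes a ubiquitin ligase, and Spag7 (r = 0.99). These values come from the 6 libraries that all genes share, with their depths. They describe how closely the log values follow a straight line, and not the size of the differences. The genes were picked for the highest r among the 4088 genes tested, and with 6 libraries such a choice by itself favours high values. Co-expression with Mcl1 was not tested. Mib2 ran from 0.58 RPM in MOG KO replicate 3 to 742 RPM in WT replicate 3, a far wider range than that of Mcl1.

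Bcl2l1 (Entrez 12048, chromosome 2, 152758732 to 152833803) encodes BCL-XL. It had 284, 0.459 and 1.74 RPM in MOG KO, and 240, 220 and 0 RPM in WT. It was thus high in MOG KO replicate 1 and WT replicates 1 and 2, at 220 to 284 RPM, and at 6 counts or fewer in the other 3 libraries. The genotypes overlapped, and the log2 fold change was -0.75 ± 2.90 (SE, 95% interval -7.51 to 6.02, adjusted p = 1 in edgeR). The value was -7.02 without MOG KO replicate 1, the library that held 1227 of the 1235 MOG KO counts, and between -1.25 and -0.13 when any other library was left out.

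Bcl2 (Entrez 12043, chromosome 1, 106538176 to 106714290), the founding member and in T cells a known target of interleukin 7 signals, had 2, 0 and 2 counts in MOG KO and 3, 0 and 0 counts in WT. All 6 libraries were at or under the floor of 3 counts, so no fold change is given and Bcl2 was not among the genes tested. Il7r, the interleukin 7 receptor chain, was at 724, 61.0 and 8.11 RPM in MOG KO and 1033, 733 and 7.94 RPM in WT.

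Levels between genes are compared per kilobase of exon (RPM per kilobase). The order by mean over all 6 libraries was Mcl1 at 167, Bax at 54.6, Bcl2l1 at 27.1, Bad at 17.7, Pmaip1 at 11.1, Bcl2l11 at 10.7, Bid at 9.89, Bak1 at 1.23, Bbc3 at 0.0577 and Bcl2 at 0.0391. The order of the means differed by genotype below Mcl1, with a wide spread within each genotype (means ± SD, n = 3 each). In MOG KO the next were Bax at 87.5 ± 84.0, Bad at 35.3 ± 30.9, Bcl2l11 at 20.9 ± 33.3 and Bcl2l1 at 20.8 ± 35.6. Bid was at 1.12 ± 1.88 and Pmaip1 at 0.0354 ± 0.0612. In WT the next were Bcl2l1 at 33.5 ± 29.1, Pmaip1 at 22.1 ± 33.5, Bax at 21.6 ± 22.4 and Bid at 18.7 ± 32.2. Bcl2l11 was at 0.539 ± 0.607 and Bad at 0.0849 ± 0.0753. Mcl1 averaged 165 ± 22.1 in MOG KO and 169 ± 31.5 in WT on that scale (SD, n = 3 each), and it was the highest member in every library but MOG KO replicate 3, where Bax reached 170 and Mcl1 139. From Bax to Bid the neighbours in the order over all 6 libraries differed by less than their spread, since each had libraries near 0 and libraries above 3 on that scale. Mcl1 made up 74.1%, 99.9% and 99.7% of the summed pro-survival level in MOG KO, and 72.6%, 77.5% and 100% in WT.

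**Figure D3:**
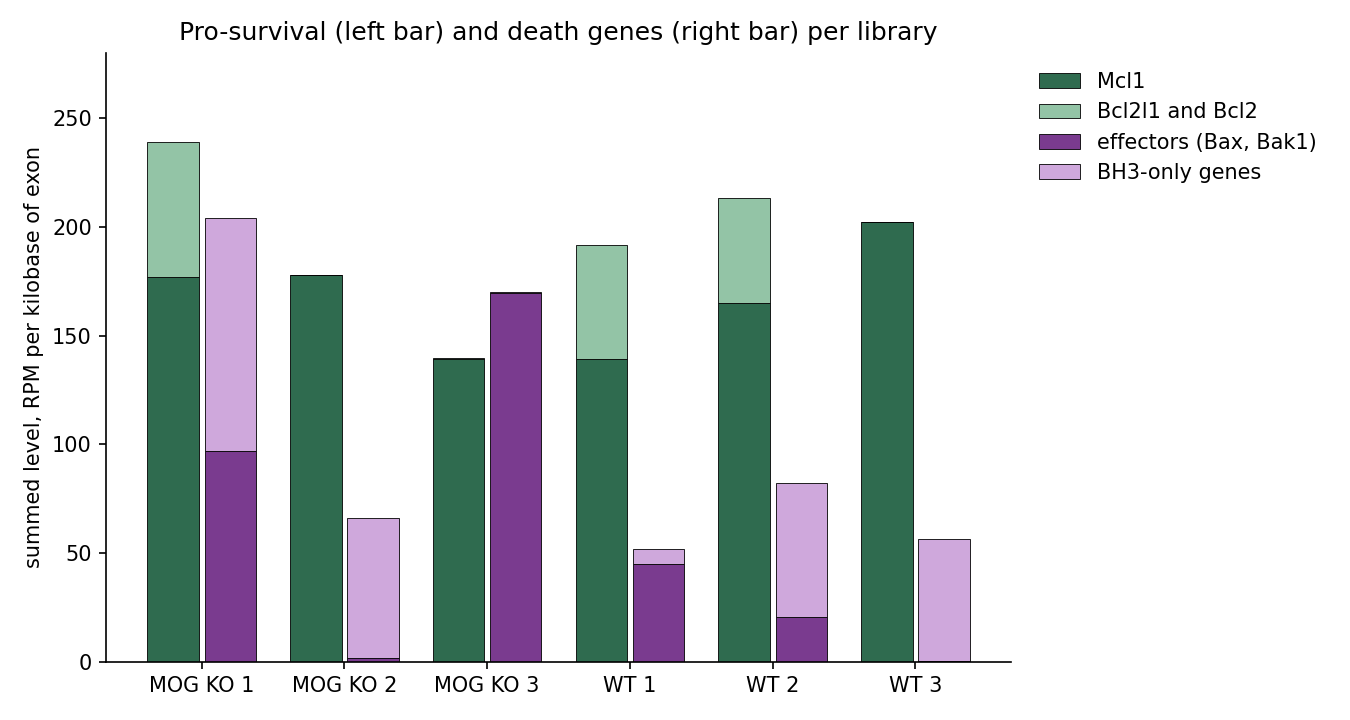
Summed level per library in RPM per kilobase of exon, pro-survival genes in the left bar (Mcl1 dark, Bcl2l1 and Bcl2 light) and death genes in the right bar (effectors dark, BH3-only genes light), MOG KO libraries first. Mcl1 fills most of each left bar, at 139 to 202, while the right bars differ in height and make-up from library to library.

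Bax (Entrez 12028, chromosome 7, 45461695 to 45466903) encodes an effector that moves to mitochondria in apoptosis. It had 144, 2.52 and 267 RPM in MOG KO, and 71.0, 30.6 and 0.567 RPM in WT. 2 libraries of each genotype were above 10 RPM and 1 of each was near 0, so the genotypes overlapped. The log2 fold change was 2.02 ± 2.33 (SE, 95% interval -3.42 to 7.46, adjusted p = 1 in edgeR). It was 1.07 without MOG KO replicate 3 and 3.13 without WT replicate 1.

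Bak1 (Entrez 12018, chromosome 17, 27019812 to 27028627), the gene of the other effector, had 60, 2 and 1 counts in MOG KO (13.9, 0.459 and 0.290 RPM), and 1, 11 and 1 counts in WT (0.368, 2.46 and 0.283 RPM). MOG KO replicate 1 alone was above 10 RPM and the others overlapped, and the gene was under the filter of the test. Bak1 lies 9.98 Mb from Mog on the same chromosome. In MOG KO replicate 2 and WT replicate 3 neither effector reached 3 RPM.

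Of the 5 BH3-only genes, Bbc3 was near 0 throughout and the other 4 were high in some libraries and near 0 in others. Bcl2l11 (Entrez 12125, chromosome 2, 128126038 to 128162547) encodes BIM, a binder of all pro-survival members. It had 476, 25.7 and 0.869 RPM in MOG KO, and 2.58, 9.84 and 0.567 RPM in WT. MOG KO replicates 1 and 2 were above every WT library and MOG KO replicate 3 was below 2 of them. The log2 fold change was 5.21 ± 2.78 (SE, 95% interval -1.26 to 11.7, adjusted p = 1 in edgeR). It was 1.68 without MOG KO replicate 1, which held 2060 of the 2175 MOG KO counts. Of the stromal and endothelial markers, Pecam1 was also highest in that library. Pecam1 values were 461, 25.2 and 47.2 RPM in MOG KO and 89.4, 24.4 and 1.98 RPM in WT. Col1a1 was at 0, 2.75 and 0 RPM in MOG KO and 2.21, 0 and 0 RPM in WT, and Pdpn had 0 counts throughout. What part other cells had in the Bcl2l11 values was not tested.

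Bad (Entrez 12015, chromosome 19, 6941861 to 6951905) encodes a BH3-only protein that growth factor signals silence by phosphorylation. It had 122, 148 and 0 RPM in MOG KO, and 0.368, 0 and 0.283 RPM in WT. MOG KO replicates 1 and 2 were high, while MOG KO replicate 3 had 0 counts and so lay within the WT range. The pooled counts were 1176 in MOG KO and 2 in WT, and every WT library was at 0 or 1 count, under the floor. Per read sequenced the ratio of MOG KO to WT was 519, with a 95% counting interval of 143 to 4292 that leaves out the spread between libraries and PCR copies. It ran from 303 without WT replicate 2 to 775 without WT replicate 1. Gpr137, on the opposite strand, shares 524 exon bases with Bad, and without a stated strand setting the reads cannot be assigned. Gpr137 had 117, 0 and 0 RPM in MOG KO and 1.10, 0.447 and 0 RPM in WT, so Bad was high in MOG KO replicate 2 where Gpr137 was at 0. In MOG KO replicate 1 both were high, at 122 RPM for Bad and 117 RPM for Gpr137, and how the reads of that library divide between them cannot be told.

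Pmaip1 (Entrez 58801, chromosome 18, 66458604 to 66465558) encodes NOXA, which binds MCL1, and is a known p53 target. It had 0, 0 and 0.290 RPM in MOG KO, and 15.5, 166 and 0.283 RPM in WT. WT replicates 1 and 2 were above every MOG KO library and WT replicate 3 lay within the MOG KO range. The pooled counts were 1 in MOG KO and 784 in WT, and every MOG KO library was at 0 or 1 count, under the floor. Per read sequenced the ratio of MOG KO to WT was 0.00113, with a 95% counting interval of 2.85e-05 to 0.00629, and it rests on that single read. As for Bad, the counting intervals leave out the spread between libraries and PCR copies. WT replicate 2 held 741 of the 784 WT counts, and without it the ratio was 0.0120 (interval 0.000296 to 0.0703). It ran from 0.000756 to 0.00176 without any other library but MOG KO replicate 3, which held the read.

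Bid (Entrez 12122, chromosome 6, 120893119 to 120917062), whose protein links death receptors to mitochondria after cleavage by caspase 8, had 0.231, 11.7 and 0 RPM in MOG KO, and 0.368, 0 and 198 RPM in WT. WT replicate 3 held 700 of the 701 WT counts. Bcl2l13, another family member on the opposite strand, shares 628 exon bases with Bid. It had 77.2, 0 and 0.290 RPM in MOG KO and 3.68, 314 and 5.95 RPM in WT, and so was not high in the libraries where Bid was. Bbc3 (Entrez 170770, chromosome 7, 16308398 to 16318334), the gene of PUMA and a known p53 target, had 0 counts in MOG KO and 2 in WT, both in WT replicate 1, so both genotypes were at or under the floor.

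Of the 10 members, 4 passed the filter on low counts (Mcl1, Bcl2l1, Bax and Bcl2l11), and 0 of these 4 passed an adjusted p of 0.05 in edgeR, against 0% of the 4088 genes tested. At an unadjusted p under 0.05 there were also 0 of 4 members, against 5.11% of all genes tested. Bcl2l11 and Bax had positive and Mcl1 and Bcl2l1 negative values, and the median over the 4 was 0.95, where that of all genes tested was 0.06. With no filter, edgeR tested all 10 members among 12317 genes and 0% of these passed. The smallest p before adjustment among the members was then 0.0613 for Pmaip1 (log2 fold change -9.03 ± 4.83, SE) and 0.0643 for Bad (8.52 ± 4.60, SE), with an adjusted p of 0.449 for both.

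DESeq2 passed 2 of the 7 members to which it gave an adjusted p, where the share over all 4648 such genes was 16%. Of these, Bad was higher in MOG KO with a log2 fold change of 8.45 (adjusted p = 0.0182 in DESeq2), and Pmaip1 lower with -8.98 (adjusted p = 0.0119 in DESeq2). Bad was near 0 in 1 of the 3 MOG KO libraries, and Pmaip1 in 1 of the 3 WT libraries. The adjusted p of Bad in DESeq2 was 0.0524 without MOG KO replicate 2 and at most 0.0393 without any other library, and that of Pmaip1 was 0.124 without WT replicate 2 and at most 0.0309 otherwise. Limma-voom passed 0 of the 4 members that edgeR tested. By value, 0 of the 10 members had genotypes that did not overlap, against 6.02% of the 12317 genes with at least 1 count.

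Presence by genotype divided the members further. Bak1, Bcl2l11 and Bad were present in MOG KO and in no WT library, 3 of 8, where the share over all genes present at least once was 18.4%. This count depends on the limit of 10 RPM. Bcl2l11 had 9.84 RPM in WT replicate 2, and a limit of 3 RPM would place it in both genotypes. Bak1 was present through MOG KO replicate 1 alone, at 13.9 RPM. Pmaip1 was present in WT and in no MOG KO library, 1 of 8 against 24.2%. 0 of 8 were present in all 3 libraries of one genotype and in none of the other, against 1.61%. Pairs of libraries of different genotype differed in the presence of 3.78 ± 1.86 members (SD, 9 pairs), and pairs of the same genotype in 3.33 ± 1.63 (6 pairs). The pairs share libraries and are not independent, so these SDs do not measure the spread between replicates. WT replicates 1 and 2 had the same 4 members present, Mcl1, Bcl2l1, Bax and Pmaip1.

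On the scale per kilobase, the death genes (effectors and BH3-only genes together) summed to 204, 66.2 and 170 in MOG KO, and 51.8, 82.3 and 56.7 in WT. The pro-survival genes summed to 239, 178 and 140 in MOG KO, and 192, 213 and 202 in WT. The ratio of death to pro-survival level was 0.855, 0.372 and 1.22 in MOG KO, and 0.270, 0.386 and 0.280 in WT. MOG KO replicates 1 and 3 were above all WT libraries in this ratio and MOG KO replicate 2 lay among them, and different genes made up the sum, mainly Bax in MOG KO replicate 3 and mainly Bax, Bcl2l11 and Bad in MOG KO replicate 1.

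Among the other 68 genes of the pathway, in 7 lists, 34 were tested and 0 passed in edgeR, with 12 positive and 22 negative values and a median of -0.20, where 2128 of the 4088 genes tested were positive (median 0.06). Of 15 further BCL2 family genes 8 were present in at least 1 library and 0 in all 6, and Bcl2l10, Bmf, Bik and Bcl2l15 had 0 counts throughout. The 2 tested were Bnip3l, a mitophagy receptor (log2 fold change 1.33 ± 2.56, SE), and Bcl2l13 (-2.10 ± 2.99, SE). The pro-survival genes Bcl2a1a, Bcl2a1b and Bcl2a1d were read at 170, 295 and 97.7 RPM in MOG KO replicate 2, and at no more than 1.10 RPM in any other library. They are near-identical copies, so their separate values are uncertain. In MOG KO replicate 2 the macrophage marker Cd68 also had 188 RPM against 0.693 to 5.89 RPM elsewhere. Of the other 4 myeloid markers none reached 10 RPM in any library, and in MOG KO replicate 2 Lyz2 was at 3.21, Csf1r at 1.15, Emr1 at 0.688 and Itgam at 0 RPM. The 5 myeloid markers summed to 6.01 to 193 RPM in MOG KO and 6.26 to 19.1 RPM in WT, the highest sum being nearly all Cd68, none of the 5 was at 0 throughout, and their part in the Bcl2a1 values was not tested.

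**Figure D4:**
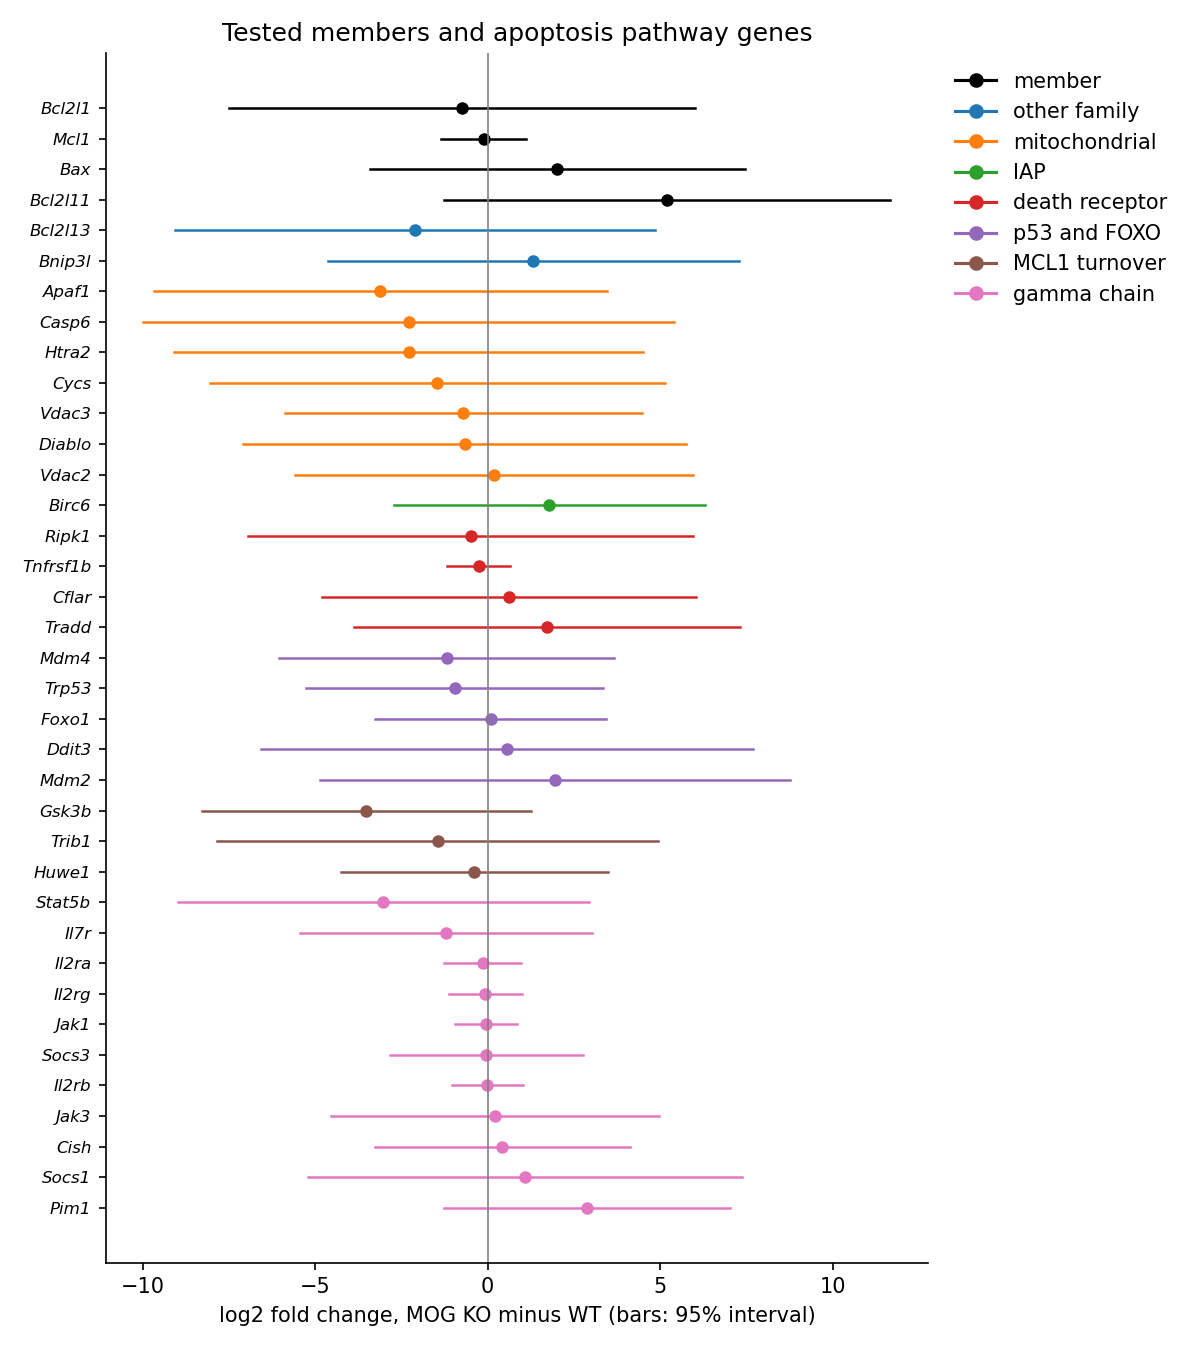
Log2 fold change of MOG KO minus WT with its 95% interval for the 4 tested members (black) and 33 of the 34 tested pathway genes, coloured by list. Every interval shown includes 0, and those of Mcl1, Tnfrsf1b, Il2ra, Il2rb, Il2rg and Jak1 are the narrowest.

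The list of 13 mitochondrial execution genes also takes in the membrane channel genes Vdac1, Vdac2 and Vdac3. Of the 13, 12 were present in at least 1 library and 0 in all 6. Of 8 tested, 7 had negative values and 0 passed (median -1.14), and Vdac2 was positive (0.19 ± 2.47, SE). Apaf1, the scaffold of the apoptosome, had 68.9, 0.229 and 7.53 RPM in MOG KO, and 589, 0.447 and 38.3 RPM in WT (log2 fold change -3.11 ± 2.82, SE). Htra2, a protease released from mitochondria, had a log2 fold change of -2.29 ± 2.92 (SE). Casp9, the caspase that the apoptosome activates, was at 1.12 to 3.31 RPM in every library.

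Regulators upstream of the family had 0 genes past the threshold in edgeR. Of 5 genes listed under MCL1 turnover, 3 were tested (Gsk3b, Trib1 and Huwe1) and had negative values. The median of -1.44 was the value of Trib1, and Huwe1 had -0.39 ± 1.66 (SE). Gsk3b, a kinase that marks MCL1 for destruction, had 14.3, 1.38 and 5.51 RPM in MOG KO, and 166, 28.4 and 38.0 RPM in WT. All 3 MOG KO libraries were below all 3 WT libraries, where 6.02% of all genes with at least 1 count did not overlap between genotypes, in either direction. The log2 fold change was -3.51 ± 2.06 (SE, adjusted p = 1 in edgeR). Trib1, a pseudokinase, had -1.44 ± 2.74 (SE), and whether it acts on MCL1 was not tested. Of 8 p53 and FOXO regulators 5 were tested (3 positive, 2 negative, median 0.09), and the named ones were Mdm2, the ubiquitin ligase of p53 (1.95 ± 2.92, SE), and its relative Mdm4 (-1.18 ± 2.08, SE).

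Trp53, the gene of p53, was at 183, 377 and 0.869 RPM in MOG KO and 304, 196 and 514 RPM in WT, while its targets Bbc3 and Pmaip1 had the values given above. Foxo1, a transcription factor of resting T cells, was at 634, 3.67 and 804 RPM in MOG KO and 573, 593 and 166 RPM in WT. Foxo3 had 0 counts in all 6 libraries.

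The receptor of interleukin 2 was read in every library. Of 12 genes of common gamma chain signalling 6 were present in all 6 libraries and 11 were tested (4 positive, 7 negative, median -0.04). Il2rb, the signalling chain, was at 814, 785 and 646 RPM in MOG KO and 1018, 506 and 633 RPM in WT (log2 fold change -0.00 ± 0.44, SE), and Il2rg, the shared chain, had -0.07 ± 0.45 (SE). These genes and Mcl1 were even across libraries, whereas Stat5b, a transcription factor below the receptor, had 123, 23.6 and 0.290 RPM in MOG KO and 489, 672 and 0.850 RPM in WT (-3.02 ± 2.56, SE) and overlapped between genotypes. Pim1, a survival kinase gene, had 462, 524 and 581 RPM in MOG KO and 127, 85.2 and 0.567 RPM in WT. Its 3 MOG KO libraries were all above its 3 WT libraries, and its log2 fold change was 2.89 ± 1.78 (SE, adjusted p = 1 in edgeR). Genotypes did not overlap in 6.02% of all genes with at least 1 count, in either direction.

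Among 10 death receptor genes 9 were present in at least 1 library, 4 were tested (2 positive, 2 negative, median 0.18) and Tnfrsf1b, the gene of TNF receptor 2, was the one present in all 6. It had 812, 1032 and 937 RPM in MOG KO, and 1578, 685 and 942 RPM in WT (log2 fold change -0.26 ± 0.39, SE), and Tradd, an adaptor of TNF receptor 1, had 1.73 ± 2.40 (SE). Of 5 inhibitors of apoptosis all were present in at least 1 library and Birc6 alone was tested, at 53.8, 259 and 215 RPM in MOG KO and 88.3, 4.25 and 54.1 RPM in WT (1.79 ± 1.95, SE).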

How the data were processed

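Reads were counted in exons per gene by the authors, and the deposited count table holds whole numbers, 1 column for each library. In the deposited RPM table each value equals the count divided by the library's total and rescaled to RPM, with differences under 1e-06. STAR 2.3.1, R 3.2.2 and genome build mm10 are named per the submitters' processing notes. The counter, gene models and strand setting were not given in the sources used here.

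The test was edgeR 4.0.16 under R 4.3.3 (filterByExpr by genotype, TMM scaling, robust quasi-likelihood fit, genotype alone), with Benjamini-Hochberg adjustment over all 4088 genes tested and a threshold of 0.05. A positive log2 fold change means higher in MOG KO. Standard errors (SE) were derived from the F statistic and are approximate. Levels per kilobase were computed here from the union of GENCODE M21 exons (GRCm38, the assembly that mm10 names). Coordinates of whole genes are RefSeq's for GRCm38.p6. The BH3 core was searched in 1 principal coding sequence per gene. The fitting step was tested on simulated counts.

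Alternatives were DESeq2 1.42.0, DESeq2 size factors or total count scaling in edgeR, no filter, 50 counts in 3 libraries, limma-voom (limma 3.58.1), the replicate number as a block, leaving out each library, and other presence limits. The members and gene lists were chosen with earlier results of these data known. All 10 members are named. In each further list the genes past the threshold are named, or else the 2 tested genes of smallest p, and Mcl1, the member of highest mean, is given with the 3 tested genes most like it. Other genes named were chosen after their values were seen. Some genes that this rule or the lists would name are not reported here.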

Additional observations from a re-analysis of the deposited data

How the results depend on the processing

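In edgeR 0 genes, 0 members and 0 pathway genes passed the threshold under every alternative setting, with a range of 0 to 0 when each library was left out, and limma-voom passed 0 of each. DESeq2 passed 745 genes (271 higher and 474 lower in MOG KO), 2 members and 1 pathway gene. Bax, Bcl2l11 and Bcl2l1 kept their direction under all alternatives that gave a value, and Bcl2l11 was not among the genes with 50 counts in 3 libraries. With each library left out, log2 fold changes ran from 1.07 to 3.13 for Bax, from 1.68 to 6.69 for Bcl2l11, from -7.02 to -0.13 for Bcl2l1 and from -0.23 to 0.14 for Mcl1, which turned positive without WT replicate 3 and in no other setting. With the replicate number as a block 0 genes passed (edgeR), and the values were -0.09 for Mcl1, -0.19 for Bcl2l1, 1.13 for Bax and 2.53 for Bcl2l11. The labels do not say whether the numbers pair the samples. Deviations of same-numbered libraries correlated at -0.02, -0.00 and -0.02 over genes, and those of different-numbered libraries at -0.02 to 0.04. At the spread of these libraries such values cannot decide whether the samples are paired. A limit of 1 count in place of 10 RPM put 4 members (Mcl1, Bax, Bak1 and Bcl2l11) in all 6 libraries, and limits of 3 and 30 RPM, or leaving out any library, gave 1. DESeq2 refits and pooled count ratios without each library were added after seeing the data. Differences of members read in some libraries and near 0 in others did not pass the threshold in edgeR at this spread.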
